A study of Mus musculus with 663 samples.

Results

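Cells high in proliferation genes were set against cells low in them from the same chip capture in the somatic lineage of the developing mouse ovary. Cells were chosen by the mean log2(RPKM + 1) of 5 proliferation genes, Mki67, Top2a, Cdk1, Ccnb1 and Aurkb. A cell with a mean of at least 3 was taken as cycling, a cell with a mean under 1 as non-cycling, and the cells between were left out. RPKM, reads scaled for gene length and for mapped reads per library, is a level per gene length. In the 8 captures with at least 5 cells of both states, which the comparison used, the gate gave 47 cycling cells at E10.5 (E for embryonic day) and 62 in the other 7 captures, against 256 non-cycling cells. The 3 captures too small for pairs held 8 more cycling cells, and the 11 captures together held 609 cells, 381 of them non-cycling. The second capture at E12.5 was left out by the rule, and the series held 662 cells in all. The 8 captures used were the one at E10.5, both at E11.5, the first at E12.5, both at E13.5 and both at postnatal day 6 (P6). No capture at E16.5 had enough cycling cells.

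All cells came from XX gonads of untreated mice on a mixed strain background, and all carried the Nr5a1-eGFP reporter, a fluorescent protein that marks cells expressing Nr5a1, a nuclear receptor that somatic cells of the gonad need. Live eGFP-positive cells had been sorted and captured on microfluidic chips of the small size class, so cells without the reporter are not represented. How many gonads or litters went into a capture is not given in the sources used here. The p-values rest on how the difference between states varies from capture to capture, and part of that can be technical.

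A dividing cell copies its DNA in S phase, then condenses and separates its chromosomes in mitosis. Cyclins bound to cyclin-dependent kinases drive each step, and CDK inhibitors hold cells back. Genes for S phase are switched on mainly through E2F factors. Genes for mitosis are switched on later, through promoters that often carry a CHR element or CCAAT boxes. In the fetal ovary, somatic progenitors divide, and pregranulosa cells, the supporting cells that will surround the oocytes, leave the cell cycle early, with p27, the product of Cdkn1b, as a known marker of that arrest.

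The reporter-sorted cells carried the marks of gonadal somatic cells. Mean levels per capture over the 11 captures were 13.9 to 55.2 RPKM for Nr5a1 and 18.8 to 67.1 RPKM for Gata4. The depth per cell, estimated from the worth of a single read in the values, had a median per capture of 1.88 to 3.20 M reads (M for 10 to the power 6), against 0.146 M in the capture left out. That capture also had transcripts of Y-linked genes in 40 of 53 cells, against 0 to 4 cells in each of the other captures. Cycling cells had more genes detected than non-cycling cells in 8 of 8 paired captures. Their medians per capture ran from 4540 to 8052 genes (median 7146) in cycling cells and from 3590 to 7396 genes (median 6619) in non-cycling cells, a mean difference of 713 ± 779 genes (SD, n = 8 captures, exact two-sided sign-flip permutation test, p = 0.00781, the smallest it can give). Without the first P6 capture the mean difference was 464.5 genes. Estimated depth was higher in cycling cells in 4 of 8 captures (exact permutation test, p = 0.531). Cells were also matched on the number of detected genes, as given below. That fit used fewer cells and captures as well, so it cannot tell apart the part of detected genes in the gene results.

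The cycling share was highest at E10.5 and lowest at E16.5. At E10.5, 66.2% of 71 cells passed the cycling gate (exact Clopper-Pearson 95% interval 53.99 to 77.003%, counting error only). The share was 20.8% ± 2.67 at E11.5, 10.1% ± 4.38 at E12.5, 15.1% at both E13.5 captures, 4.66% ± 4.02 at E16.5 and 14.1% ± 0.643 at P6 (mean ± SD over 2 captures each). The shares describe the gate and carry no test, since the gate chose the cells. E10.5 had a single capture, and E10.5 to E13.5 belong, apart from the third E12.5 capture, to another sequencing series than E16.5 and P6. The cells nearest the upper threshold had means of 3.03 inside and 2.97 outside, and those nearest the lower threshold 0.995 inside and 1.0008 outside. Within 0.25 of the upper threshold lay 8 cells above and 9 below, and within 0.25 of the lower one 35 below and 32 above. Of the 381 non-cycling cells, 37.8% had all 5 gate genes at 0.

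**Figure D1:**
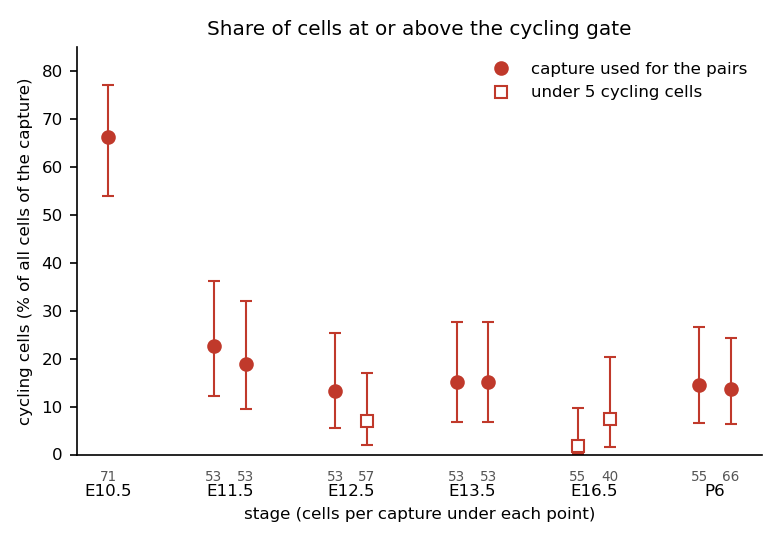
Share of cycling cells in percent of all cells of a capture (vertical axis) by stage (horizontal axis), 1 point per capture with its exact 95% interval; filled circles are captures used for the pairs and open squares those with under 5 cycling cells. The E10.5 capture stands at 66.2%, above both E11.5 captures at 22.6% and 18.9%, and the E16.5 captures are at 1.82% and 7.50%.

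Apart from the gate genes, 254 genes were higher and 106 lower in cycling than in non-cycling cells of the same captures. For each capture and state the mean RPKM over cells was taken, log2(mean + 1) was formed, and limma compared the states with capture as a block over 14184 genes, at an adjusted p (Benjamini-Hochberg) under 0.05. A gene past that threshold is said to have risen or fallen. The called share was 1.79% for genes higher in cycling cells and 0.747% for genes lower in cycling cells. Levels of the 8 cycling groups lay above all 8 non-cycling groups for 0.98% of genes and below all of them for 8 genes (0.0564%). The direction was the same in all 8 pairs for 298 genes higher (2.1%) and 276 genes lower (1.95%) in cycling cells. The median log2 change over all genes was -0.22, and adding 1 RPKM before the log makes changes of low genes look smaller than they are. With levels centred on their median the split was 310 higher and 46 lower, and 253 of the 254 rises remained called. Of the 254 rises, 219 were protein-coding genes and 14 were pseudogenes, many of which share reads with a parent gene and are uncertain. The gate genes themselves differed by 5.66 to 6.55 on the log2 scale, which the gate fixed.

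The 12 largest rises ran from 5.08 to 6.37 on the log2 scale, and 3 of them are given first. Ube2c, the ubiquitin-conjugating enzyme of the anaphase-promoting complex (mouse chromosome 2, 164769898 to 164778822, GRCm38), had 81.5 to 159.6 RPKM (median 132.8) in cycling cells, against 0 to 1.87 RPKM (median 0.396) in non-cycling cells over the 8 captures. The groups did not overlap, and the log2 change was 6.37 ± 0.34 (SE, adjusted p = 3.94e-07). Ckap2l, a spindle microtubule protein, had 34.7 to 179.5 RPKM (median 96.02) in cycling cells, against 0.0207 to 3.16 RPKM (median 0.377) in non-cycling cells, a log2 change of 5.96 ± 0.36 (adjusted p = 7.28e-07). Tpx2, which targets Aurora A to the spindle, had 55.4 to 117.7 RPKM (median 91.6) in cycling cells, against 0.00628 to 2.73 RPKM (median 0.302) in non-cycling cells, a log2 change of 5.83 ± 0.35 (adjusted p = 7.28e-07). The groups did not overlap for Ckap2l or Tpx2.

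Upstream sequence of 3 mitotic genes among the rises and of Rrm2, an S phase gene described further on, shows the letters searched for in all promoters. They were picked because they carry such letters. The runs read for Ndc80, Tk1 and Lig1 held none of them, but they did not cover the same part of each promoter. The Ndc80 run and a Lig1 run were shorter than 150 bases, and the Tk1 run left out the bases nearest the start. Such runs cannot tell whether these promoters lack the letters. The runs are from RefSeq promoter windows on GRCm38.p6, 5′ to 3′ along the gene's strand, cut to at most 150 bases free of annotated exons. Capitals mark the CCAAT box (CCAAT, or ATTGG on the other strand) and the CHR element (TTTGAA, or TTCAAA on the other strand). Ube2c is at chr2:164769748-164769897 (plus strand), Ckap2l at chr2:129297213-129297362 (minus strand), Bub1 at chr2:127831866-127832015 (minus strand) and Rrm2 at chr12:24708091-24708240 (plus strand).
Ube2c: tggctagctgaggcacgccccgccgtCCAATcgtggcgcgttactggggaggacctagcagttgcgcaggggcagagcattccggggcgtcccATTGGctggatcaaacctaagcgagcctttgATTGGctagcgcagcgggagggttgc
Ckap2l: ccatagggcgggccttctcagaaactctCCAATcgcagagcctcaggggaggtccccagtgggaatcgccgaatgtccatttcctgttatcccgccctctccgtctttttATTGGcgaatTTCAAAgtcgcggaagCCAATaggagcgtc
Bub1: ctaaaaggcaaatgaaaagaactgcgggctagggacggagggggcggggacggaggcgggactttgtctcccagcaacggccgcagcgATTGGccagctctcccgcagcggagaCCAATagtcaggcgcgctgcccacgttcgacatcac
Rrm2: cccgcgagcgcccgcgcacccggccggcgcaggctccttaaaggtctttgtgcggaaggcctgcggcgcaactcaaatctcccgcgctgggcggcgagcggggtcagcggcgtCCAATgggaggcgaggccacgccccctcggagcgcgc
Ckap2l has a CHR element 30 bases before its start with CCAAT boxes 40 and 14 bases before the start, and Rrm2 has a CCAAT box 50 bases before it.

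Promoter windows of the called genes were read for the same letters in the 250 bases before each start, on both strands. Windows were found for 169 of the 254 genes that rose. CHR letters stood in 28.3% of the 198 windows of genes higher in cycling cells, in 9.26% of the windows of genes lower in cycling cells and in 10.6% of the 11127 windows of all genes tested. CCAAT boxes stood in 63.1% of windows of the rises, 46.3% of windows of the falls and 35.5% of all tested. E2F letters (TTTGGCGC, TTTCGCGC, TTTCCCGC or TTTGCCGC) stood in 10.1% of windows of the rises, 0.926% of windows of the falls and 3.35% of all tested. Over the whole table of 32851 promoters the shares were 15.99% for CHR, 33.8% for CCAAT and 1.86% for E2F letters. Among the lists, CHR letters stood in 27.1% of the windows of mitotic genes and 13.04% of those of replication and nucleotide genes, while E2F letters stood in 5.08% of the mitotic and 19.6% of the replication windows. The median GC content was 59.6% for the rises and 59.2% for the falls. A match is a description of the letters and no evidence of binding, and the 4 E2F spellings can overlap each other.

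Genes for the kinetochore, the complex that ties chromosomes to the spindle, rose as a whole list. All 23 of 23 tested were higher in cycling cells, with a median log2 change of 3.95 beside -0.22 for all genes. Ndc80, its microtubule-binding subunit, had 30.4 to 129.04 RPKM (median 41.7) in cycling cells, against 0.00315 to 9.16 RPKM (median 0.0251) in non-cycling cells, a log2 change of 5.10 ± 0.49 (adjusted p = 3.81e-05). Birc5 (survivin) and Cdca8 (borealin), both subunits of the chromosomal passenger complex, rose by 4.79 ± 0.44 and 4.15 ± 0.39 (adjusted p = 2.72e-05 and 3.37e-05). Aurkb, the kinase of that complex, is a gate gene. The smallest rise of the list was that of Cenpk, at 2.67. Over all genes 1.79% were called higher and 0.747% lower, shares to set beside this list's count and those of the lists that follow.

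Of the 23 spindle motors and microtubule factors, 21 were higher and none was lower, with a median log2 change of 4.51. Kif23, the motor of the midzone that cytokinesis needs, had 37.5 to 128.4 RPKM (median 58.4) in cycling cells, against 0.00403 to 10.7 RPKM (median 0.119) in non-cycling cells, a log2 change of 5.37 ± 0.48 (adjusted p = 2.12e-05). Nusap1, which bundles spindle microtubules, rose by 5.08 ± 0.38 (adjusted p = 6.33e-06). Kif20a, a motor of cytokinesis, rose by 3.55 ± 0.26 (adjusted p = 4.02e-06), with 48.7 to 256.2 RPKM in cycling cells and 4.39 to 15.3 RPKM in non-cycling cells. Kif18a and Kifc1 were not called, at 1.88 and 1.02.

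Of the 20 genes of mitotic entry, 14 were higher and none was lower, with a median of 3.85. Plk1, the kinase that drives centrosome maturation and mitotic exit, had 70.4, 41.4, 78.5, 34.9, 50.02, 46.1, 19.9 and 170.0 RPKM in cycling cells of the E10.5, both E11.5, E12.5, both E13.5 and both P6 captures. In non-cycling cells of the same captures it had 0.0585, 0.00543, 4.47, 0.0526, 0.00967, 0.0821, 0.157 and 0.0436 RPKM. The groups did not overlap, and non-cycling cells were highest in the second E11.5 capture. The log2 change was 5.38 ± 0.42 (adjusted p = 7.63e-06). The spindle checkpoint kinases Bub1 and Bub1b rose by 5.17 ± 0.40 and 5.33 ± 0.54, the Cdk1-activating phosphatase gene Cdc25c by 5.33 ± 0.54 and the mitotic kinase genes Pbk and Aurka by 5.64 ± 0.53 and 4.63 ± 0.40 (adjusted p at most 6.24e-05 for each). Cdca3, a trigger of mitotic entry outside the list, rose by 5.41 ± 0.38 (adjusted p = 3.67e-06). Wee1, which holds Cdk1 inactive, was not called, at 1.02.

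Genes of the anaphase-promoting complex were called in part. Of the 16 genes tested, 7 were higher and none was lower, with a median of 0.999. The 7 were Ube2c, Cdc20, Pttg1, Espl1, Mad2l1, Bub3 and Fbxo5, none of which encodes a core subunit. Fbxo5 (Emi1), the inhibitor of the complex in interphase, had 34.99 to 143.5 RPKM (median 82.4) in cycling cells, against 0.0269 to 29.3 RPKM (median 1.46) in non-cycling cells, a log2 change of 4.75 ± 0.52 (adjusted p = 1.13e-04). Mad2l1, the checkpoint protein that binds Cdc20, rose by 2.83 ± 0.32 (adjusted p = 1.32e-04). None of the 7 core subunits was called, with log2 changes of -0.18 for Cdc16, -0.06 for Cdc26, -0.02 for Anapc1, 0.35 for Cdc27, 0.35 for Anapc5, 0.41 for Anapc11 and 0.86 for Cdc23. Beside 2.54% called in either direction over all genes, that count is no result about the core subunits. The regulators Fzr1 and Ube2s were not called either, at 0.81 and 1.14.

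**Figure D2:**
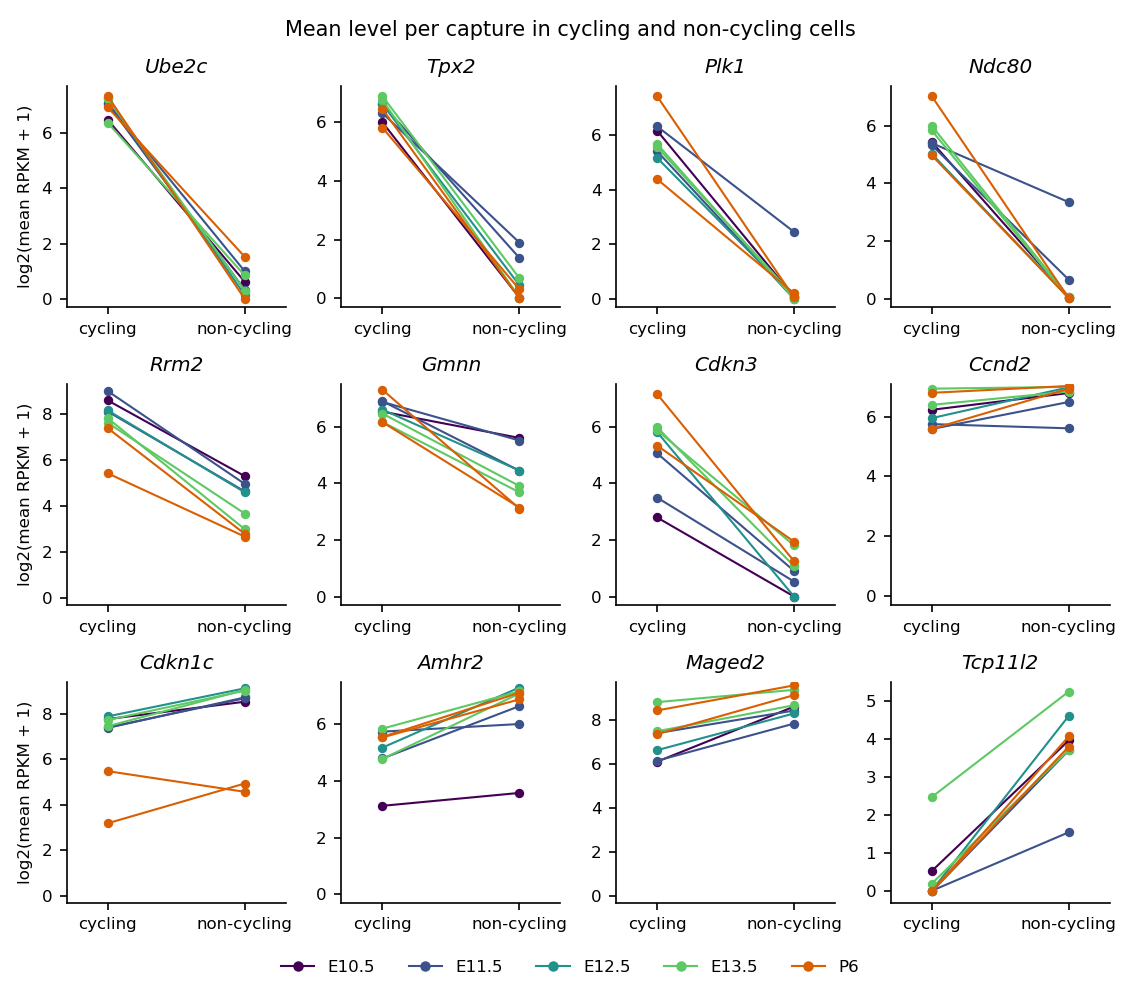
Mean level per capture on the log2(mean RPKM + 1) scale (vertical axis) in cycling and non-cycling cells (horizontal axis), 1 line per capture coloured by stage, for 12 genes with their own axes. Ube2c, Tpx2, Plk1, Ndc80, Rrm2, Gmnn and Cdkn3 fall along each line toward non-cycling cells, Amhr2, Maged2 and Tcp11l2 climb, and Cdkn1c climbs in all captures but the second P6 capture.

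Of 25 genes of chromosome and chromatin proteins, 18 were higher and none was lower, with a median of 1.46. Ncaph and Ncapg, subunits of condensin I, rose by 4.04 ± 0.34 and 4.12 ± 0.44 (adjusted p = 1.36e-05 and 8.03e-05). Hmgb2, an abundant chromatin protein, had 50.7 to 113.9 RPKM (median 82.96) in cycling cells, against 7.72 to 28.8 RPKM (median 13.1) in non-cycling cells, a log2 change of 2.60 ± 0.27 (adjusted p = 6.41e-05). Its levels did not overlap between states. Hmgb3, Hmgn2, Cbx5 and Lmnb1 of the same list were not called, at 0.27 to 0.50.

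The gate genes act mainly in G2 and mitosis, so the sizes of the mitotic and replication changes are not compared. Of 36 genes of origin licensing and the replication fork, 12 were higher and none was lower, all 36 had a change above 0, and the median was 1.23. Gmnn (geminin), which blocks a second licensing, had 71.1 to 158.3 RPKM (median 94.5) in cycling cells, against 7.64 to 47.9 RPKM (median 17.5) in non-cycling cells, a log2 change of 2.40 ± 0.33 (adjusted p = 7.22e-04). Gins1, a subunit of the replicative helicase, rose by 2.98 ± 0.45 (adjusted p = 0.00174). Lig1, the ligase of lagging-strand DNA, rose by 1.89 ± 0.30 (adjusted p = 0.00302), with overlapping groups at 13.4 to 58.4 RPKM in cycling cells and 1.35 to 16.51 RPKM in non-cycling cells. Of the Mcm2 to Mcm7 helicase genes, Mcm5 was called, at 1.34, and the others were not, at 0.38 to 1.10.

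Of 14 genes of nucleotide synthesis, 5 were higher and none was lower, with a median of 0.85. Rrm2, the small subunit of ribonucleotide reductase, had 381.5, 272.6, 504.9, 282.1, 223.0, 194.1, 164.9 and 41.6 RPKM in cycling cells of the captures in stage order. Non-cycling cells had 38.2, 23.8, 30.007, 23.1, 6.94, 11.7, 5.91 and 5.36 RPKM. Cycling cells were lowest in the second P6 capture, still above every non-cycling level, and the log2 change was 3.80 ± 0.25 (adjusted p = 2.08e-06). Tk1, thymidine kinase of the salvage pathway, rose by 3.65 ± 0.41, and Rrm1, the large reductase subunit, by 1.74 ± 0.23 (adjusted p = 1.23e-04 and 4.91e-04). Enzymes of purine and pyrimidine synthesis from simple precursors were not called, among them Cad at 0.12, Gart at 0.33 and Ppat at -0.45.

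Of 20 DNA repair genes, 8 were higher and none was lower, beside 1.79% and 0.747% over all genes, with a median of 1.90. Atad2, a chromatin ATPase, rose by 2.63 ± 0.28 (adjusted p = 8.03e-05). Rad54b, of homologous recombination, rose by 3.12 ± 0.48 (adjusted p = 0.00208), with levels of 2.52 to 44.4 RPKM in cycling cells and 0.00386 to 5.40 RPKM in non-cycling cells. Exo1, an exonuclease of mismatch repair and end resection, rose by 2.48 ± 0.45 (adjusted p = 0.0082).

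Because of that gate, cells were also described by their replication genes. A replication score, the mean log2(RPKM + 1) of the 36 replication genes per cell, had medians per capture of 1.48 to 4.24 in cycling cells and 0.480 to 2.40 in non-cycling cells, with 0.986 to 3.59 in the cells between the gates. A mitosis score over the kinetochore, spindle and entry lists had medians of 1.75 to 3.96 in cycling cells and 0.157 to 0.516 in non-cycling cells. Pooled over captures, a replication score of at least 3 was found in 71 cycling cells (65.1%) and in 13 of 256 non-cycling cells (5.08%). The E10.5 capture alone gave 38 of the 71, from 47 cycling cells. The first E11.5 capture had 3 of 12 such cycling cells and the second P6 capture 0 of 9. In the second P6 capture the replication median was 1.48 in cycling cells and 0.480 in non-cycling cells, while its mitosis median in cycling cells was 2.99. When the gate was set on 5 S phase genes instead, 0.94% of genes tested were higher and 5 genes lower, and 100 of the 254 rises were also called. Of these 5 gate genes, 4 are among the 254 rises, and they were not taken out of the counts.

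**Figure D3:**
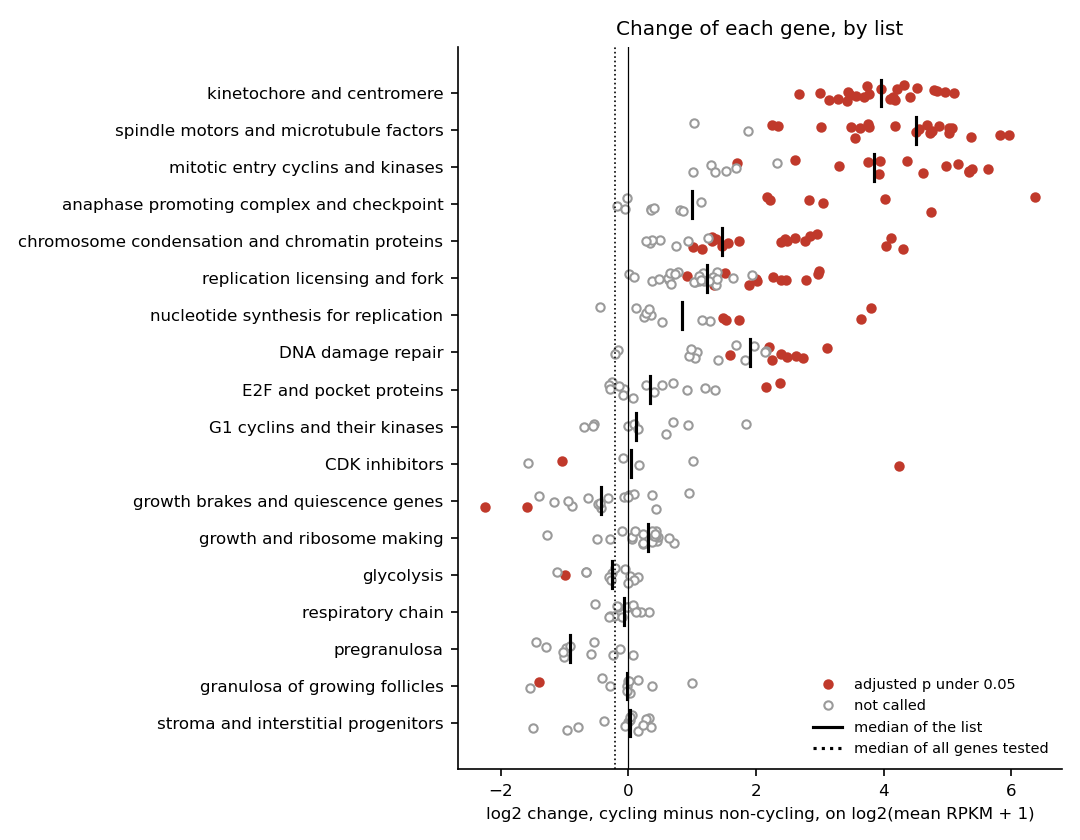
Log2 change, cycling minus non-cycling, on the log2(mean RPKM + 1) scale (horizontal axis) for each tested gene of 18 lists (vertical axis); filled points have an adjusted p under 0.05, bars are list medians and the dotted line is the median of all genes. The kinetochore, spindle and mitotic entry lists have medians of 3.95, 4.51 and 3.85, and the lists below the DNA repair list have medians between -0.91 and 0.34.

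None of 10 G1 cyclins and kinases was called, with a median of 0.12, beside 2.54% called in either direction over all genes, so the count is no result about G1 genes. Ccnd2, the D-type cyclin with the highest median level, had 46.96 to 121.1 RPKM (median 67.3) in cycling cells, against 47.7 to 129.05 RPKM (median 117.1) in non-cycling cells, a log2 change of -0.55 ± 0.21 (adjusted p = 0.214). Ccnd1 and Ccnd3 were at -0.54 ± 0.51 and 0.00 ± 0.33 (adjusted p = 0.657 and 0.9996). The E-type cyclin gene Ccne1, which acts at S phase entry, was at 1.84 ± 0.60 and higher in cycling cells in 7 of 8 captures, but it was not called (adjusted p = 0.154), and Ccne2 was at 0.93 ± 0.38 (adjusted p = 0.261). Groups overlapped for all 5 cyclins.

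Of 16 E2F and pocket protein genes, E2f8 and Lin52 were higher and none was lower, with a median of 0.34. Over all genes 1.79% were called higher and 0.747% lower. E2f8, a repressor of the E2F family, had 0.141 to 20.8 RPKM (median 3.68) in cycling cells, against 0 to 0.191 RPKM (median 0.00387) in non-cycling cells, a log2 change of 2.38 ± 0.53 (adjusted p = 0.0328). Lin52, a subunit of the DREAM and MuvB complexes that switch between repression and activation of cell cycle genes, rose by 2.16 ± 0.47 (adjusted p = 0.0275). Leaving out 1 capture at a time ended the call of E2f8 in 6 of 8 fits and that of Lin52 in 5 of 8, with adjusted p up to 0.0979 and 0.0781.

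CDK inhibitors did not move together. Cdkn3, which despite its name is a phosphatase that acts on Cdk2 and Cdk1, had 5.92 to 141.1 RPKM (median 47.1) in cycling cells, against 0 to 2.83 RPKM (median 0.989) in non-cycling cells, a log2 change of 4.25 ± 0.44 (adjusted p = 7.62e-05). Cdkn1c (p57) had higher levels than Cdkn3 in both states of the fetal captures, while in cycling cells of both P6 captures Cdkn3 was higher. Cdkn1c had 215.9, 167.6, 165.0, 234.4, 209.6, 173.8, 8.13 and 43.5 RPKM in cycling cells, against 367.0, 407.5, 417.8, 551.7, 513.4, 525.5, 29.6 and 22.8 RPKM in non-cycling cells of the captures in stage order. It was lower in cycling cells in 7 of 8 captures, with both P6 captures far below the fetal ones in both states, and the log2 change was -1.04 ± 0.25 (adjusted p = 0.0472). With blocks of equal cell number, described with the falls, the call was lost at -0.96 (adjusted p = 0.0966), and leaving out 1 capture ended it in 7 of 8 fits, all but that without the second P6 capture.

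Cdkn1a (p21), a target of p53, had 0 to 7.83 RPKM (median 0.308) in cycling cells, against 0 to 20.6 RPKM (median 8.94) in non-cycling cells, a log2 change of -1.57 ± 0.50 (adjusted p = 0.144). Cdkn1b (p27) had 1.73 to 11.3 RPKM (median 6.71) in cycling cells, against 0.425 to 27.1 RPKM (median 8.24) in non-cycling cells, a log2 change of -0.08 ± 0.48 (adjusted p = 0.964). Cdkn2c and Cdkn2d, of the INK4 family, were at 1.01 ± 0.51 and 0.17 ± 0.72 (adjusted p = 0.376 and 0.945). The RNA of p27 thus did not pass the test between states, and its protein was not measured. Of 18 growth brakes and quiescence genes, none was higher and 2 were lower, beside 1.79% and 0.747% over all genes. They were Tob1 at -1.59 ± 0.37 and Gas6 at -2.24 ± 0.55 (adjusted p = 0.0397 and 0.0487). Neither was called with blocks of equal cell number (adjusted p = 0.136 and 0.0958). Leaving out 1 capture ended the call of Tob1 in 8 of 8 fits and that of Gas6 in 7 of 8, all but that without the second P6 capture.

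Fewer of the falls than of the rises were called again under other settings. In all paired captures other than E10.5, a cycling level averages fewer cells than a non-cycling level. The larger state of a capture was therefore also divided into whole blocks of the size of the smaller, and cells left over were not used. With log2 levels averaged over blocks, 319 genes were higher (2.25%) and 30 lower (0.212%), and the median of all genes was 0.06. Of the original calls, 251 of 254 rises and 29 of 106 falls were called again, and all 106 falls kept their sign. A seeded draw of equal numbers gave 222 higher and 10 lower. Leaving out E10.5 gave the most falls, 0.974% of genes tested. The other fits without 1 capture gave fewer, with 67 and 55 without the first and second E11.5 captures, 47 without E12.5, 53 and 43 without the first and second E13.5 captures, 78 without the first P6 capture and 63 without the second P6 capture. In cells matched on detected genes, 106 genes were higher and 46 lower. That fit had 7 captures, with at least 3 cells of both states in each. It called 41.7% of the original rises and 23 of the 106 falls again, and all 254 rises and 106 falls kept their sign.

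**Figure D4:**
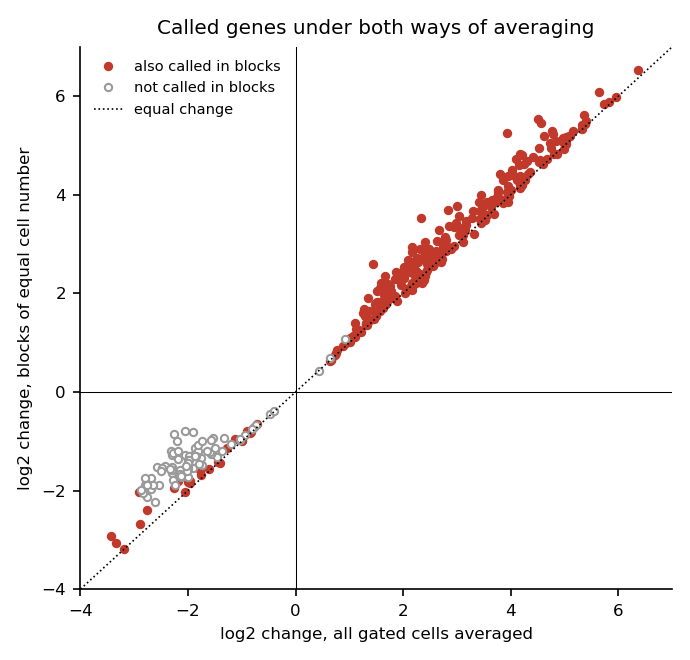
Log2 change, cycling minus non-cycling, with all gated cells averaged (horizontal axis) and with blocks of equal cell number (vertical axis) for each of the 254 rises and 106 falls; filled points are also called in blocks, open points are not, and the dotted line marks equal change. Of the rises 251 are filled, and of the falls 29 are, most of the open falls lying above the line, nearer to 0.

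Among the falls called both ways, that of Tcp11l2, of the T-complex protein family, was the largest with all gated cells averaged, and Tgfb1i1 and Akr1cl fell more in blocks. Tcp11l2 had 0.449, 0, 0.0112, 0.0138, 4.58, 0.151, 0 and 0 RPKM in cycling cells of the captures in stage order, against 14.7, 12.1, 1.94, 23.6, 37.3, 12.2, 13.02 and 15.9 RPKM in non-cycling cells. Every capture was lower in cycling cells, and the log2 change was -3.43 ± 0.43 (adjusted p = 3.36e-04). Fam214a had 0 to 1.46 RPKM (median 0.956) in cycling cells, against 3.39 to 26.2 RPKM (median 13.7) in non-cycling cells with no overlap, a log2 change of -2.90 ± 0.49 (adjusted p = 0.00472). Akr1cl, of the aldo-keto reductase family, had 0.0333 to 612.5 RPKM (median 16.2) in cycling cells, against 25.9 to 1025 RPKM (median 151.7) in non-cycling cells, a log2 change of -3.33 ± 0.63 (adjusted p = 0.0109). It was lower in cycling cells in 8 of 8 captures, and P6 had the highest levels in both states.

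Tgfb1i1 (Hic-5), a focal adhesion protein, had 0.0249 to 37.3 RPKM (median 2.54) in cycling cells, against 15.4 to 75.3 RPKM (median 26.3) in non-cycling cells, a log2 change of -3.19 ± 0.49 (adjusted p = 0.00204). Serpina3a, a serine protease inhibitor, fell by 2.92 ± 0.51, and Gstm7, a glutathione S-transferase, by 2.77 ± 0.55 (adjusted p = 0.00629 and 0.0143). In the blocks the changes were -2.92 for Tcp11l2, -2.67 for Fam214a, -3.07 for Akr1cl, -3.18 for Tgfb1i1, -2.03 for Serpina3a and -2.39 for Gstm7. The other 6 of the 12 largest falls were not called in blocks. They were Ctsf, a lysosomal protease, at -2.87, Tcn2, a vitamin B12 carrier, at -2.83, Tmem38a, a cation channel, at -2.79, Rgs11, a regulator of G protein signalling, at -2.76, and Zfp958 and Atp5s at -2.69 and -2.68, with adjusted p of 0.0547 to 0.155 in blocks. Aldoa, a glycolytic enzyme, fell by 0.99 ± 0.23 (adjusted p = 0.0405) and was also called in blocks (adjusted p = 0.0393). It was the only called gene of 13 in the glycolysis list, beside 2.54% called in either direction over all genes. Leaving out 1 capture ended the call of Aldoa in 6 of 8 fits, that of Ctsf in 5 and that of Zfp958 in 4, with adjusted p up to 0.114, 0.0756 and 0.0591.

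Cells with a supporting score were rare among cycling cells from E12.5 to E16.5. A cell was scored as supporting when its mean log2(RPKM + 1) of Foxl2, Fst, Irx3, Runx1 and Amhr2 was above that of the stroma genes Nr2f2, Tcf21, Pdgfra, Dcn and Col1a2. In the 6 captures of these stages other than the one left out, 1 of 31 cycling cells (3.23%, exact 95% interval 0.0816 to 16.7%) and 57.1% of 238 non-cycling cells (50.6 to 63.5%) had a supporting score. Per capture the share in cycling cells was 0 but for 1 of 8 cells in the first E13.5 capture, and in non-cycling cells 46.2 to 63.6%, a mean difference of -55.0 ± 6.604 percentage points (SD, n = 6, lower in 6 of 6, exact two-sided sign-flip permutation test, p = 0.03125, the smallest it can give). These captures hold 1 to 8 cycling cells each. At P6, 4 of 17 cycling cells (23.5%) and 38 of 79 non-cycling cells (48.1%) had a supporting score, with 1 of 8 and 3 of 9 cycling cells of the first and second captures against 20 of 32 and 18 of 47 non-cycling cells. Whether P6 differed from the fetal stages was not tested. Over all 8 captures from E12.5 the mean difference was -48.2 ± 18.4 points (exact permutation test, p = 0.00781, the smallest it can give), and over the 5 of them used for the pairs it was -42.6 ± 21.8 points (exact permutation test, p = 0.0625, the smallest it can give).

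**Figure D5:**
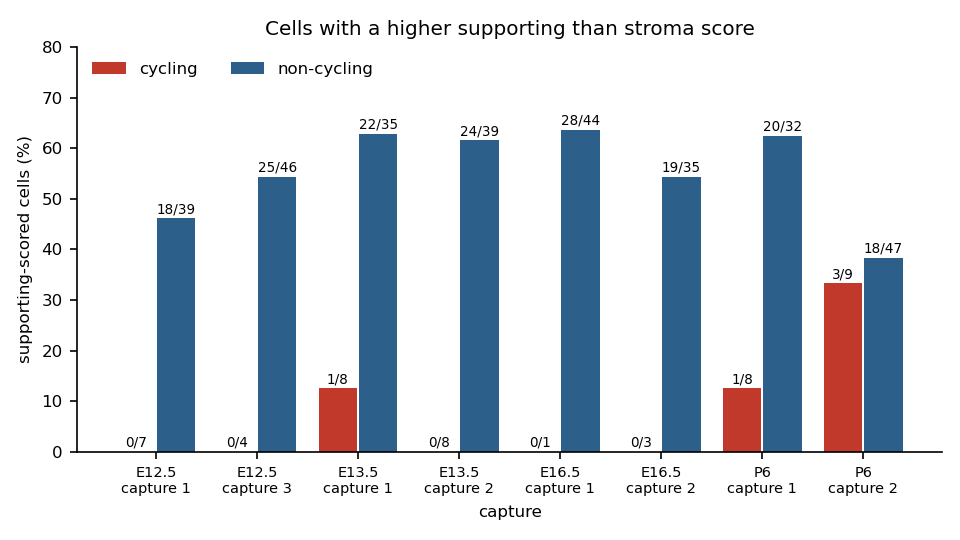
Share of cells with a supporting score above their stroma score, in percent (vertical axis), for cycling cells (left bar) and non-cycling cells (right bar) of each capture from E12.5 on (horizontal axis), with the number of such cells over all cells of the state above each bar. Cycling bars stand at 0 in 5 of the 6 fetal captures and reach 33.3% at P6, and non-cycling bars lie between 38.3% and 63.6%.

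The next genes are members of the 2 scores, so their shares describe the scored split and add no support to it. Irx3, Tcf21, Dcn and Col1a2, the remaining members, are not given this way. Over the 8 paired captures, the 5 supporting genes had a median log2 change of -1.29, with Amhr2 called. The 5 stroma genes had a median of 0.28, with none called. The first shares are from E12.5 to E16.5. Runx1, a transcription factor of pregranulosa cells, was at 1 RPKM or more in 6 of 31 cycling cells (19.4%) and in 53.4% of 238 non-cycling cells. Fst (follistatin) was detected at that level in 16.1% of cycling and 44.1% of non-cycling cells, Amhr2, the receptor of anti-Müllerian hormone, in 38.7% and 69.7%, and Foxl2, the ovarian transcription factor, in 12.9% and 25.6%. The stromal receptor gene Pdgfra went the other way, with 67.7% of cycling cells and 23.95% of non-cycling cells, and Nr2f2, a stromal transcription factor, was detected in 31 of 31 cycling and 215 of 238 non-cycling cells. At P6 the shares in cycling and non-cycling cells were 58.8% and 63.3% for Foxl2, 29.4% and 30.4% for Fst, 17.65% and 31.65% for Runx1, 23.5% and 44.3% for Amhr2, 58.8% and 40.5% for Pdgfra, and 94.1% and 81.01% for Nr2f2. These shares pool cells over captures and carry no test.

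Lineage genes themselves were mostly not called in the comparison of levels. None of 11 pregranulosa genes was called, with 10 of 11 below 0 and a median of -0.91, and none of 14 stroma genes was called, with a median of 0.03. With 2.54% called in either direction over all genes, the counts of calls are no result about these lists. Of 12 granulosa genes, Amhr2 alone was called. It had 7.68, 26.6, 52.2, 34.98, 56.2, 26.3, 45.8 and 45.2 RPKM in cycling cells, against 10.9, 98.2, 63.1, 155.3, 141.3, 133.9, 136.7 and 116.1 RPKM in non-cycling cells of the captures in stage order, a log2 change of -1.40 ± 0.26 (adjusted p = 0.0108, also called in blocks at 0.00551). It was lower in cycling cells in 8 of 8 captures, the E10.5 and second E11.5 captures differing least. Within cells with a stroma score (7 captures from E12.5 on with at least 3 cells of both states), 0.989% of genes tested were higher and 8 genes lower, 52.8% of the 254 rises and 1 of the 106 falls were called, and Amhr2 was at -0.54 (adjusted p = 0.713). That 1 fall was Tcp11l2, at -4.18 (adjusted p = 0.00139). Within stroma-scored cells Gstm7 was at 0.11, Akr1cl at -1.47 and Tgfb1i1 at -2.37, none of them called. A level averaged over all gated cells does not separate a smaller share of a cell type from less RNA of a gene per cell. Supporting-scored cells gave only 1 capture with enough cells of both states, so no fit could be made.

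Other lists held no called gene or few. Over all genes 2.54% were called in either direction, so these counts are no result about the lists. No member was called among 20 genes of growth and ribosome making (median 0.30), 14 of the respiratory chain (-0.07), 14 of cholesterol synthesis (0.06), 11 imprinted growth genes (-0.11), 13 immediate early genes (-0.14), 11 of the surface epithelium (-0.13), 9 of gonad progenitors (-0.45), 5 of steroid making (-1.05) and 4 of the mesonephros (0.66). Markers of other cells that a sort could carry were also summed. The summed level of 6 mesonephros genes was 0.0196 to 118.025 RPKM in cycling cells and 3.73 to 21.3 RPKM in non-cycling cells, higher in cycling cells in 5 of 8 captures. The summed level of 8 germ cell genes was 0 to 9.87 RPKM in cycling cells and 0.134 to 19.9 RPKM in non-cycling cells, with Dppa3, Pou5f1 and Dppa5a at 0 in all. The sum of 8 endothelial genes was 4.77 to 44.3 RPKM in cycling cells and 0.792 to 16.1 RPKM in non-cycling cells, and that of 5 blood genes 1.07 to 8.26 RPKM in cycling cells and 0.0991 to 9.56 RPKM in non-cycling cells. The summed steroid-making genes reached 445.7 RPKM in cycling cells and 1296 RPKM in non-cycling cells and were higher in cycling cells in 1 of 8 captures. The part of these cells in the results was not tested.

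Whether the difference between states itself differed between stages was tested on the differences per capture, with 3 residual degrees of freedom. No gene of 14184 was called in the F test over stages (0.0%) or in the contrast of P6 with E11.5 (0.0%) by limma, with 1050 and 963 genes at an unadjusted p under 0.05 and smallest adjusted p of 0.673 and 0.63. On simulated data the contrast recovered 4.55% of log2 changes of 4, so it could show little. Stage and sequencing series cannot be told apart here. List medians stood side by side without a test, at 4.80 at P6 and 3.52 at E11.5 for the kinetochore, 4.49 and 3.96 for the spindle list and 1.36 and 1.10 for replication. Per capture, the median of the kinetochore list ran from 3.42 to 4.67 and that of the spindle list from 3.69 to 4.92.

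Captures that the fit did not use showed the same directions for most rises. In the third E12.5 capture, with 4 cycling and 46 non-cycling cells, 237 of the 254 rises were above 0 with a median log2 change of 2.95, beside 6241 of all 14184 genes tested above 0. In the second E16.5 capture, with 3 cycling and 35 non-cycling cells, 232 of the 254 were above 0 with a median of 3.70, beside 36.25% of all genes tested. Of the 29 falls called both ways, 24 were below 0 in each of these captures, beside 51.3% and 56.6% of all genes tested. These captures used the same gate and, with so few cells, carry no test.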

How the data were processed

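Single-cell RNA-seq values of 663 libraries were used as deposited by the authors, in a table without a unit name that was taken as RPKM, since totals differed between cells and low values times gene length fell on multiples of single reads. Per the submitters' processing notes the build was GRCm38.p3 (mm10); no source names the aligner, counting tool or use of strand (not given in the sources used here). A repeat library (r = 0.996) was averaged with its cell, and 27 names that a spreadsheet had turned into dates were left out of 43347. Captures, the chip runs that the titles name, served as replicates, and no doublet caller was run, so doublets are not marked.

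For each capture and state, log2(mean RPKM over cells + 1) was taken for genes with a mean of at least 1 RPKM over the 16 levels. limma 3.58.1 in R 4.3.3, with an intensity trend and capture as a block, tested state with Benjamini-Hochberg adjustment at 0.05, leaving 7 residual degrees of freedom. Both states of a capture come from the same sorted suspension, which is where the pairing comes from. In tests on simulated data over 14189 genes, log2 changes of 1, 2 and 4 between states were recovered in 10.4%, 44.8% and 93.9% of genes with 6 false calls. Changes were added only to genes with a mean log2 level of at least 2, and both states had the same noise. Low genes and the unequal cell numbers of the states are thus not covered by these rates. The text names, by rule, the 12 top genes in each direction by log2 change among those called and not provisionally named, up to 3 called genes per list ranked by adjusted p, and all CDK inhibitors and G1 cyclins. The members and lists were chosen with earlier results of these data known. Gene positions are from GENCODE vM21 and promoter windows from RefSeq on GRCm38.p6. Alternatives covered the pseudocount, filter, scaling, averaging, gates, cell numbers, lineage scores and captures; the use of blocks of equal cell number was added after the data were seen. Shares and intervals were computed with Python 3.11.15 and scipy 1.17.1.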

Additional observations from a re-analysis of the deposited data

Results flagged for a closer look

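For 51 groups of 8 captures, the capture farthest from the others was compared with the spread of the group, and 5 stood apart, where chance gives about 1 in 20. The log2 difference of Kif23 was 2.24 in the second E11.5 capture, against 4.66 to 6.75 in the others. That of Ndc80 was 2.05 in the same capture, against 4.67 to 7.01 in the others. In both cases the non-cycling level of that capture was the highest of the 8, at 10.7 RPKM for Kif23 and 9.16 RPKM for Ndc80. Its non-cycling cells also had the highest median gate value of the 8, at 0.315. The difference of Cdc25c was 1.70 in the E12.5 capture, against 4.78 to 7.33 in the others, and its cycling cells had the lowest mitosis score, with a median of 1.75 over 7 cells. The difference of Cdkn1c was 0.91 in the second P6 capture, where it was higher in cycling cells, against -1.74 to -0.76 in the others. The difference in detected genes was 2449 in the first P6 capture, against 63.5 to 950 in the others, and without that capture 208 genes rose and 78 fell.

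The second E12.5 capture, which the rule leaves out, was read with the same gate. Its cycling cells had a median of 0.305 M reads and 4782 genes, against 0.120 M reads and 3659.5 genes in its non-cycling cells, and the part of this in its differences was not tested. With 15 cycling and 18 non-cycling cells, 226 of the 254 rises had a difference above 0 there, with a median log2 change of 1.97, beside 49.98% of all genes tested. It is also the capture with an estimated depth of 0.146 M reads and with Y-linked transcripts in 40 of 53 cells. Of the 29 falls called both ways, 22 were below 0 in it, beside 38.9% of all genes tested.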

How the results depend on the processing

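The 254 rises kept their direction where tested under nearly every alternative run. The exceptions were 4 of 250 with the S phase gate and 1 of 252 with at least 10 cells of both states. The falls turned more often, and 81 of 106 kept their direction with the S phase gate. In stroma-scored cells 96 falls kept it and in blocks of these 87, with some of the 106 not tested there. Under the other alternatives, each fit that left out 1 capture included, all falls tested kept their direction. Calls are given as a share of genes tested, beside 1.79% higher and 0.747% lower. The fit with no replicate block, which drops the pairing by capture, gave 1.69% (239 rises) and 0.423% (60 falls), 41 of them among the 106. The share lower was 0.1304% with no filter on low values, 0.324% with levels centred on their median, 0.0712% with equal cell numbers, 0.212% in blocks of equal cell number, 1.64% with gates of 2.5 and 1.5 and 0.373% in fetal captures, which are also the first sequencing series. Shares higher and lower were 4.15% and 0.374% with the mean of log2 over cells, 0.940% and 0.0351% with the S phase gate, 0.136% and 0.00754% with at least 10 cells (2 captures), 0.762% and 0.331% with cells matched on detected genes, 0.989% and 0.0573% in stroma-scored cells, 1.14% and 0.0143% in blocks of these, 0.897% and 0.365% in the second sequencing series, and 1.08% and 0.3125% from E12.5 on. Leaving out 1 capture gave 1.44 to 1.66% higher and 0.304 to 0.974% lower, and 42 of the 50 named calls passed in all these fits. The cycling share with gates of 2.5 and 3.5 was 23.6% and 17.9% at E11.5 and 16.98% and 14.15% at E13.5, and it was 16.52% with 2.5 at P6. Over gated cells alone it was 88.7% at E10.5, 27.75% at E11.5, 17.8% at E13.5 and 18.04% at P6. The stage comparisons called 0 genes under each alternative run.

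The cause of the following turns of sign in log2 change was not tested. Gstm7 was at 0.108 in stroma-scored cells, and in blocks of these it was at 0.949, Amhr2 at 0.417, Gas6 at 0.136 and Cdkn1b at 0.452. Amhr2 is a member of the supporting score that helped choose these cells. With the S phase gate Zfp958 was at 0.241, Cdkn1c at 0.164, Ccnd2 at 0.353, Ccnd1 at 0.153 and Ccnd3 at -0.046. Ccnd1 was at 0.096 with the mean of log2 and 0.10 in fetal captures. Ccnd3 was at -0.004 with a pseudocount of 0.1, -0.023 with cells rescaled, -0.408 with gates of 2.5 and 1.5, -0.487 with at least 10 cells, -0.304 in stroma-scored cells, -0.058 with the second E12.5 capture and -0.041 in fetal captures. Cdkn1b was at 0.08 with a pseudocount of 0.1, 0.032 rescaled, 0.193 centred, 0.592 with at least 10 cells, 0.26 in stroma-scored cells, 0.252 with the second E12.5 capture and 0.215 in fetal captures. Cdkn2d was at -0.192 with gates of 3.5 and 0.5, -0.387 with 2.5 and 1.5, -0.087 with the second E12.5 capture, -2.738 in the second series and -1.137 from E12.5 on. Leaving out 1 capture gave -0.133 to 0.117 for Ccnd3, -0.424 to 0.113 for Cdkn1b and -0.301 to 0.747 for Cdkn2d.

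Levels averaged over few cycling cells limit what can be shown for low genes, and E16.5 could not be paired.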

Other observations

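Members of some families outside the lists were called too. The families were chosen after their values were seen, so they carry no test, and over all genes 1.79% were called higher and 0.747% lower. Of 33 histone cluster genes tested, 8 were higher in cycling cells and none was lower, with a median log2 change of 1.33. Hist1h4d, a histone H4 gene, had 87.5 to 247.6 RPKM (median 170.7) in cycling cells, against 2.76 to 31.1 RPKM (median 13.9) in non-cycling cells, a log2 change of 3.66 ± 0.38 (limma adjusted p = 7.43e-05). Hist1h2ae rose by 3.94 ± 0.49 and the linker histone gene Hist1h1b by 3.17 ± 0.46 (adjusted p = 3.43e-04 and 0.00142). Replication-dependent histone RNAs mostly lack a poly(A) tail, the labels give the molecule as polyA RNA, and near-identical copies share reads, so single histone genes are uncertain. Of 10 gene names of alpha and beta tubulins, the building blocks of microtubules, 5 were higher and none was lower. The 10 include the pseudogene Tubb4b.ps1, at 1.35 and not called (adjusted p = 0.104), which can share reads with Tubb4b. Tubb5 had 1191 to 2242 RPKM (median 1730) in cycling cells, against 452.0 to 1227 RPKM (median 682) in non-cycling cells, a log2 change of 1.22 ± 0.10 (adjusted p = 1.13e-05) that was positive in 8 of 8 captures.

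Of 8 augmin subunits, which nucleate microtubules within the spindle, 3 were higher, and of 27 nucleoporins 5 were higher, none being lower in either family. Of the 4 genes tested for Ran, the GTPase of nuclear transport and spindle assembly, and its regulators, 3 were higher. Ran rose by 1.07 ± 0.16, with Ranbp1 at 0.93 ± 0.21 and Rangap1 at 2.16 ± 0.42 (adjusted p = 0.00165, 0.0329 and 0.0127). Rcc1 was not called, at 0.45 ± 0.63 (adjusted p = 0.781), and was higher in cycling cells in 3 of 8 captures. Of 9 enzymes of serine and one-carbon metabolism, which feed nucleotide synthesis, Mthfd2, Psat1 and Shmt1 rose by 2.02 ± 0.33, 2.02 ± 0.42 and 1.75 ± 0.37 and none was lower. Among the falls, 4 of 6 mu class glutathione S-transferases, detoxifying enzymes, were lower and none was higher. Gstm1 had 3.11 to 704.2 RPKM (median 67.97) in cycling cells, against 40.3 to 1118 RPKM (median 309.5) in non-cycling cells, a log2 change of -2.06 ± 0.45 (adjusted p = 0.0285), lower in 8 of 8 captures. Gstm1, Gstm2 and Gstm7 were also called in blocks of equal cell number and Gstm4 was not. These genes lie in a cluster of similar copies that can share reads.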
